A study of Mus musculus with 6 samples.

Results

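The 84 genes described here encode the proteins of the cytosolic ribosome. They were chosen by name alone, as every row of the gene table called Rpl or Rps with a number, the stalk genes Rplp0, Rplp1 and Rplp2, and Rpsa, without Rps27l, out of 23079 genes in all. Of these, 78 are called common members below, and 6 are paralogs whose names carry an l after the number (Rpl3l, Rpl7l1, Rpl10l, Rpl22l1, Rpl36al and Rpl39l). A further gene, Rps4y2, was counted as common by its name, although RefSeq lists gene 66184 as Rps4l. The rule used no expression value, though it was chosen with earlier results of these data known.

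The RNA came from midbrain dopaminergic neurons, per the labels, of C57BL/6 mice aged 4 months that carry the Dat bacTRAP transgene in both groups. There were 3 libraries of the Satb1 knockdown, in which adeno-associated virus of serotype 1 carried a short hairpin RNA against Satb1 with EGFP, and 3 control libraries with a scrambled hairpin and EGFP. Satb1 encodes a chromatin organiser. The sample titles speak of siRNA, the labels name 3 mice for 6 libraries, and nothing says which libraries came from separate animals, so each p-value reflects only how far these 6 libraries spread, which may be technical. The substantia nigra pars compacta and ventral tegmental area were cut from 1 mm slices, but the labels do not say which region a library holds. A bacTRAP line carries EGFP-tagged Rpl10a, here under the dopamine transporter's promoter. The labels state total RNA and no ribosome capture, so it is not known here whether RNA was pulled down with that tagged protein.

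The libraries held between 147486754 and 170351145 gene counts. Satb1 reached 82.9, 166 and 61.2 CPM in the knockdown libraries, against 351, 349.6 and 319.8 CPM in the control libraries, and the groups did not overlap. Levels are in CPM, the count of a gene as a share of its library's scaled depth, with depth scaled by the trimmed mean of M-values (TMM) unless stated otherwise. All 10 dopamine neuron markers passed the low-count filter, and their summed level was 8445 to 10646 CPM in knockdown libraries and 12537 to 13771 CPM in control libraries, with 0 called higher and 6 called lower. Of 10 oligodendrocyte markers, 8 were called higher and 0 lower, with sums of 636 to 719 CPM in knockdown and 403 to 472 CPM in control libraries. Astrocyte markers (2 of 10 higher, 1 lower) summed to 250.5 to 254 CPM in knockdown and 268 to 314 CPM in control libraries. Yet 9 of them had a positive log2 fold change and 1 a negative one, with a median of 0.57. Microglia markers (2 of 10 higher, 2 lower) summed to 42.7 to 51.1 CPM in knockdown and 51.4 to 55.4 CPM in control libraries. Here too 8 were positive and 2 negative, with a median of 1.06. A sum follows its most abundant genes. Vessel markers (0 of 10 called) summed to 5.53 to 11.4 CPM in knockdown and 5.91 to 8.32 CPM in control libraries, and markers of other neurons (1 of 10 higher, 0 lower) to 287 to 414 CPM in knockdown and 274 to 344 CPM in control libraries. All 10 genes of each list passed the filter. In the same fit, described below, 8.48% of all tested genes were called higher and 12.6% lower. The part of these shifts in any result below was not tested. In such bulk libraries, fewer cells of a type and less RNA per cell cannot be told apart.

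The ribosome has a large subunit, where peptide bonds form, and a small subunit, where the message is decoded. Each ribosome takes about equal numbers of its core proteins, and their messages are among the most abundant in most cells. In mammals these messages typically start with a C followed by a run of pyrimidines, the 5′ terminal oligopyrimidine (TOP) element, through which mTORC1 and Larp1 control their translation. Many of the genes carry small nucleolar RNA (snoRNA) genes in their introns, and most have many processed pseudogenes. Vertebrate genomes also hold tissue-restricted paralogs of a few members.

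Sequences around the annotated start were read from RefSeq (GRCm38.p6), which gave a window for 63 of the 84 members. The 5 printed here belong to the 3 members that differed between the groups, to Rpl22l1, the paralog whose ratio to its partner is also described, and to the most abundant member, Rpl41. Each runs 5′ to 3′ on the gene's strand from 80 bases before the start through 30 bases from it, and capitals mark the longest run of C and T within 30 bases of the start.
Rpl28 (chr7:4792885-4792994, plus strand): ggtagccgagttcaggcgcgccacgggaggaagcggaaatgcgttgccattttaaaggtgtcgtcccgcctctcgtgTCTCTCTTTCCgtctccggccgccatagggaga
Rpsa (chr9:120127686-120127795, plus strand): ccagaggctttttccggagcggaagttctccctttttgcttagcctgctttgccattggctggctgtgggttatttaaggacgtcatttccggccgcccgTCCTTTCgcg
Rpl7l1 (chr17:46782627-46782736, minus strand): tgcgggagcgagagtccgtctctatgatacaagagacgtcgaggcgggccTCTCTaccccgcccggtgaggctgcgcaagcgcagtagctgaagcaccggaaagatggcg
Rpl22l1 (chr3:28805428-28805537, plus strand): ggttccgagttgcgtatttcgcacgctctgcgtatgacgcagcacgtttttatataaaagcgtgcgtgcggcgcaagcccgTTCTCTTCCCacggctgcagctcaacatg
Rpl41 (chr10:128549139-128549248, minus strand): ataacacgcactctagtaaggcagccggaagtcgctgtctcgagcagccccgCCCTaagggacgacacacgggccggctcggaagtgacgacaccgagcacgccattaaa

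The longest run was 11 bases in Rpl28, 10 in Rpl22l1, 7 in Rpsa, 5 in Rpl7l1 and 4 in Rpl41. Runs were read only within 30 bases of the start. The Rpl7l1 run begins at that edge and continues beyond it, so its length is cut there. A run of at least 8 C or T lay within 30 bases of a start in 32 of 57 common members with a window (56.1%), in 2 of 6 paralogs, and in 25.6% of 13117 tested genes with a window. The letters CTTTC on the gene's strand in the same stretch were present in 21 common members (36.8%), 1 paralog and 8.05% of tested genes. The letters CTTCCG on either strand within the 300 bases (250 before the start and 50 after) occurred in 40 common members (70.2%), 2 paralogs and 30.1% of tested genes. CTTTC is too short to mark a TOP element and can lie inside the longer runs. Rpl28 and Rpsa hold CTTTC, Rpsa and Rpl41 hold CTTCCG, and Rpl7l1 and Rpl22l1 hold neither.

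Ribosomal protein messages made up a few percent of all counts in both groups. Their summed share of all counts, which is a total-count scaling, was 3.29%, 2.98% and 2.60% in the knockdown libraries, against 2.85%, 2.59% and 2.36% in the control libraries. The mean was 2.96% ± 0.344 in the knockdown and 2.60% ± 0.245 in the control (SD, n = 3 each), a ratio of 1.14, and the groups overlapped. The highest library was 1.26 times the lowest within the knockdown and 1.21 times the lowest within the control. The knockdown share was above the control share of the same replicate number in all 3 numbers, though the labels do not say that a number pairs the libraries. On the log2 scale the ratio was 0.19, beside a median of 0.18 over all tested genes with total counts. The median level of all tested genes was 14.9 CPM, against 330 CPM for the tested members. With TMM the members summed to 27858 ± 2746 CPM in the knockdown and 27547 ± 2189 CPM in the control (SD, n = 3 each), a ratio of 1.01. Within a library the large subunit's common members had 1.79, 1.80 and 1.81 times the CPM of the small subunit's in the knockdown, against 1.79, 1.82 and 1.82 times in the control, which overlap.

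**Figure D1:**
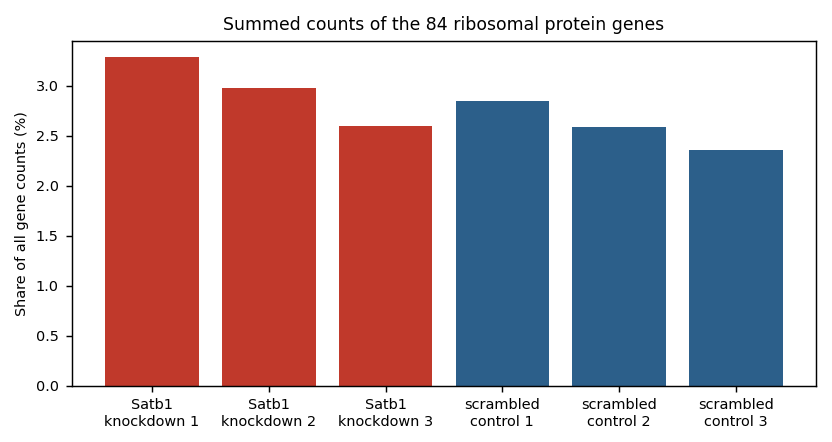
Summed counts of the 84 ribosomal protein genes as a percent of all gene counts (vertical axis), 1 bar per library, with the Satb1 knockdown libraries in red and the scrambled controls in blue. The knockdown bars reach 2.60% to 3.29% and the control bars 2.36% to 2.85%, and the groups overlap.

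With TMM scaling, 82 members passed the low-count filter and 79 of them did not pass the test. By edgeR's quasi-likelihood test with Benjamini-Hochberg adjustment over 16766 genes at a threshold of 0.05, Rpsa was higher and Rpl28 and Rpl7l1 were lower in the knockdown. These 3 calls are 3.66% of the tested members, against 21.1% of all tested genes (8.48% higher and 12.6% lower). At an unadjusted p under 0.05 there were 13 members, 5 positive and 8 negative. The fold changes of the members were small and to both sides. There were 47 positive and 35 negative log2 fold changes between -0.55 and 0.32, with a median of 0.04, and quartiles of -0.07 and 0.12. Over all tested genes the quartiles were -0.26 and 0.34. A log2 fold change within 0.25 of 0 was found for 73 of 82 members (89.0%), against 43.4% of all tested genes, and the median standard error was 0.11 for members and 0.15 for all tested genes. All 3 knockdown libraries lay above all controls for 7 members and below them for 8, which is 18.3% of members, against 38.7% of tested genes (17.9% above and 20.8% below).

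**Figure D2:**
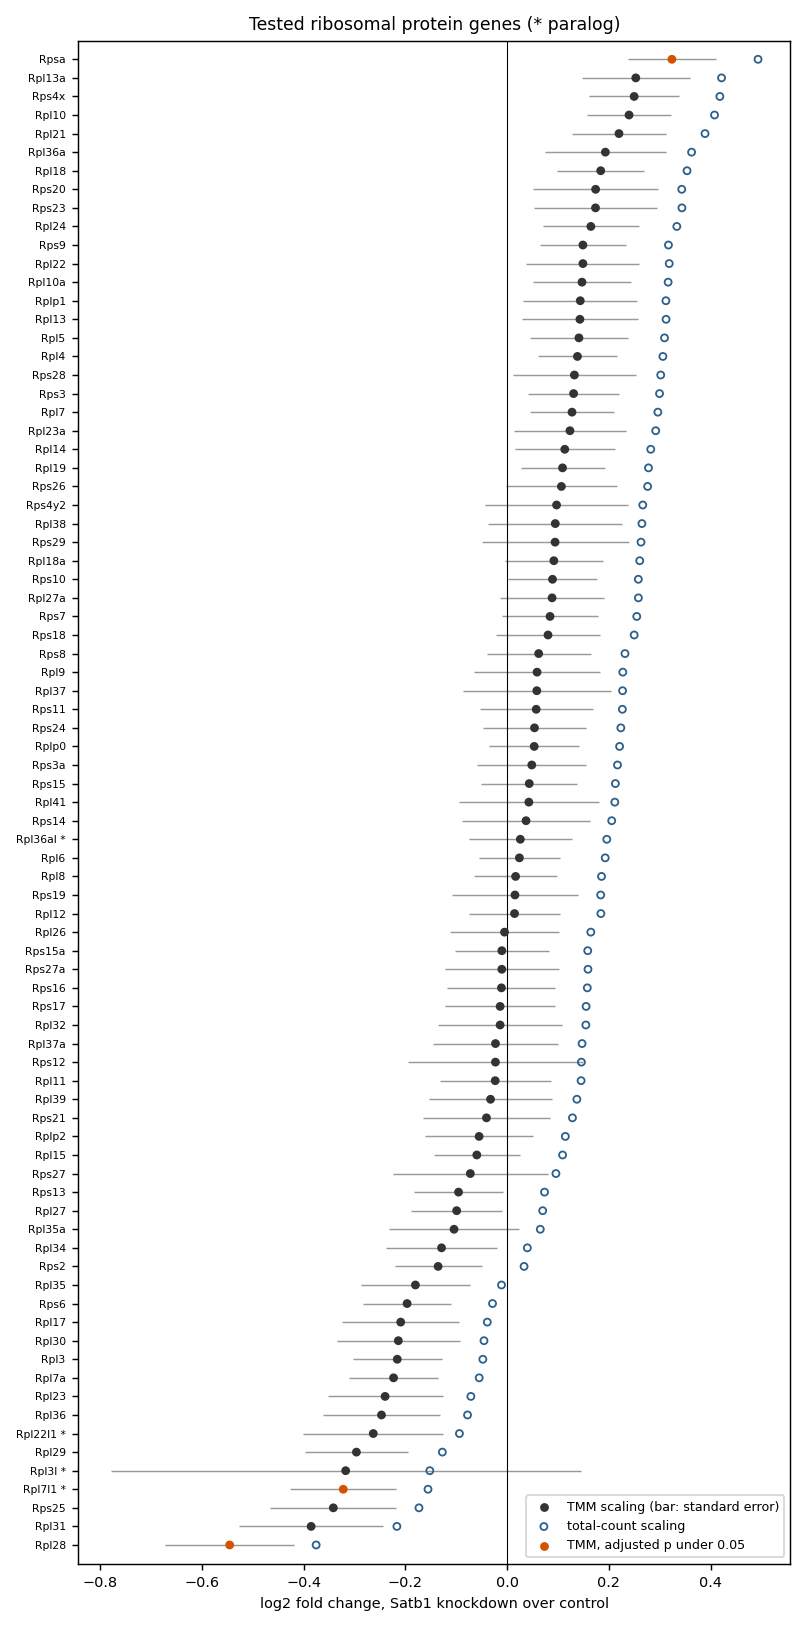
Log2 fold change of Satb1 knockdown over control for tested members (1 row each), as filled points with standard errors under TMM scaling and as open circles under total-count scaling. Most filled points lie near 0, the 3 members called under TMM are orange, and every open circle lies to the right of its filled point. That shift is nearly the same for every gene by construction.

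Rpl28, a protein of the large subunit, had the largest log2 fold change of the tested members in absolute value. It measured 154, 159 and 109.8 CPM in the knockdown libraries, against 211, 199 and 207 CPM in the control libraries. All 3 knockdown libraries lay below all controls, with means of 141 ± 27.1 CPM in the knockdown and 206 ± 6.14 CPM in the control (SD, n = 3 each). The log2 fold change was -0.55 ± 0.13 (SE here and below), with an adjusted p of 0.0097 by edgeR. The gene (identifier 19943, chr7:4792965-4794547, plus strand) overlaps exons of Ube2s, a ubiquitin-conjugating enzyme gene on the opposite strand. Ube2s was itself lower, at 51.1, 63.0 and 45.1 CPM in the knockdown libraries, against 73.5, 72.2 and 67.9 CPM in the control libraries, with a log2 fold change of -0.42 and an adjusted p of 0.0274. Whether counting used strand is not given in the sources used here, so reads of the overlapping exons may be credited to either gene. Every stretch of 50 coding bases of Rpl28 is shared with other annotated genes, which are 4 pseudogenes. The Rpl28 call held in 17 of 18 alternatives and was lost with total counts. Its log2 fold change was negative in all of them, and was -0.38 without knockdown library 3.

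Rpsa, a small subunit protein that is also known as a laminin receptor, was the member called higher. It measured 229, 211 and 209.9 CPM in the knockdown libraries, against 174, 178 and 167 CPM in the control libraries. The groups did not overlap, with means of 217 ± 10.9 CPM in the knockdown and 173 ± 5.80 CPM in the control (SD, n = 3 each). The log2 fold change was 0.32 ± 0.09, with an adjusted p of 0.0194 by edgeR. The gene (identifier 16785, chr9:120127766-120132369, plus strand) holds 3 snoRNA genes. Its coding sequence shares stretches of 50 bases with 28 other annotated genes, 27 of them pseudogenes. The call was lost without any 1 of control libraries 1, 2 and 3 or of knockdown library 1, and with the members as the scaling reference, and the adjusted p ranged from 0.000577 to 0.143 over 18 alternatives. Its log2 fold change stayed positive in these, between 0.29 and 0.49.

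Rpl7l1, a homolog of the large subunit protein Rpl7, was the third member called, at a far lower level than most. It measured 32.5, 36.6 and 36.2 CPM in the knockdown libraries, against 45.8, 43.1 and 42.7 CPM in the control libraries. The groups did not overlap, with means of 35.1 ± 2.24 CPM in the knockdown and 43.9 ± 1.67 CPM in the control (SD, n = 3 each). The log2 fold change was -0.32 ± 0.10, with an adjusted p of 0.0432 by edgeR. The gene (identifier 66229, chr17:46773907-46782656, minus strand) has exons that overlap no other annotated gene. The call held in 6 of 18 alternatives and was lost when any 1 library was left out, with adjusted p between 0.0234 and 0.308 and a negative log2 fold change throughout.

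The large subunit's 46 common members had a median log2 fold change of 0.03, with 0 called higher and 1 lower. That is 2.17% called, against 21.1% of all tested genes (8.48% higher and 12.6% lower). Rpl41, one of the smallest known proteins, was the most abundant member by CPM, at 900.0, 806 and 628 CPM in the knockdown libraries, against 878, 761 and 627 CPM in the control libraries. The 3 libraries of each group spread over a wide range and overlapped, with a log2 fold change of 0.04. Rpl4, at the peptide exit tunnel, measured 762, 772 and 815 CPM in the knockdown libraries, against 719, 709.7 and 705 CPM in the control libraries, and its groups did not overlap, yet its log2 fold change of 0.14 did not pass the test (adjusted p = 0.234, edgeR). Rpl3, which lies close to the peptidyl transferase centre, went the other way. It measured 636, 667 and 567 CPM in the knockdown libraries, against 762, 709 and 701 CPM in the control libraries, also without overlap, with a log2 fold change of -0.22 and an adjusted p of 0.101 (edgeR). Rpl6 measured 607, 574 and 605 CPM in the knockdown libraries, against 611, 575 and 571 CPM in the control libraries, and its groups overlapped. Rpl10, which is loaded late as the large subunit matures, had a log2 fold change of 0.24 and an adjusted p of 0.0562 (edgeR), with 521, 502 and 523 CPM in the knockdown libraries, against 459, 438 and 412 CPM in the control libraries, without overlap. Rpl29 had a log2 fold change of -0.30 and an adjusted p of 0.0549 (edgeR), with 227, 247 and 196 CPM in the knockdown libraries, against 282, 257 and 283 CPM in the control libraries, without overlap. Rpl31 had -0.39, with an adjusted p of 0.0711 (edgeR). Rpl10a, the protein that the transgene carries in tagged form, measured 520.2, 504 and 419 CPM in the knockdown libraries, against 455, 434 and 414 CPM in the control libraries, with a log2 fold change of 0.15 and an adjusted p of 0.319 (edgeR). Reads from the transgene and from the endogenous gene cannot be told apart in these counts.

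The 32 common members of the small subunit had a median log2 fold change of 0.05, with 1 called higher (Rpsa) and 0 lower. That is 3.1% called, against 21.1% of all tested genes (8.48% higher and 12.6% lower). Rps24, a member needed to process the small subunit's RNA, was the most abundant of them, at 725, 674 and 568 CPM in the knockdown libraries, against 688, 605 and 602 CPM in the control libraries, and its groups overlapped. Rps4x, the X-linked S4 protein, measured 559.6, 544 and 499 CPM in the knockdown libraries, against 481, 446 and 421 CPM in the control libraries, without overlap, with a log2 fold change of 0.25 and an adjusted p of 0.0621 (edgeR). Rps25, which has a role in internal ribosome entry, had a log2 fold change of -0.34 and an adjusted p of 0.0687 (edgeR), with 391, 370.1 and 299.9 CPM in the knockdown libraries, against 522, 435 and 388 CPM in the control libraries, where the groups overlapped. Its exons overlap Ccdc84 and Trappc4, both lower in the knockdown with log2 fold changes of -0.50 and -0.44.

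The stalk proteins, which recruit the elongation factors, did not pass the test. Rplp0, often used as a reference transcript, measured 152, 160.1 and 146 CPM in the knockdown libraries, against 149.6, 150.5 and 141 CPM in the control libraries, with a log2 fold change of 0.05 ± 0.09. Rplp1 measured 461, 427 and 371 CPM in the knockdown libraries, against 419, 395 and 325 CPM in the control libraries, with a log2 fold change of 0.14 ± 0.11. Rplp2 measured 414, 364 and 331 CPM in the knockdown libraries, against 428, 375 and 350.2 CPM in the control libraries, with -0.06 ± 0.11. The groups overlapped for all 3.

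Paralogs were compared with their common partners. Of the 6 paralogs, 4 passed the filter, and they had a median log2 fold change of -0.29, with 0 called higher and 1 lower (Rpl7l1), against a median of 0.05 for common members and 0.01 for all tested genes. The 1 call among these 4 stood against 8.48% of all tested genes called higher and 12.6% lower. With Rps4y2 moved to the paralogs the median of these 5 was -0.26. Without control library 2, when Rpl39l also passed the filter, the paralog median was 0.02, and without knockdown library 3 it was -0.03. Rpl22l1, an alternative to the RNA-binding protein Rpl22, which represses it in mouse cells, measured 140.0, 141 and 96.4 CPM in the knockdown libraries, against 167, 145 and 141 CPM in the control libraries. The groups overlapped only through a narrow margin, with a log2 fold change of -0.26 ± 0.14 and an adjusted p of 0.201 (edgeR), and its exons overlap Gm33051 on the opposite strand. Rpl22 measured 118, 102 and 94.5 CPM in the knockdown libraries, against 105, 92.2 and 85.9 CPM in the control libraries, with a log2 fold change of 0.15. Rpl36al, the autosomal relative of the X-linked Rpl36a, measured 383, 331 and 306 CPM in the knockdown libraries, against 356, 338 and 308 CPM in the control libraries, and the groups overlapped with a log2 fold change of 0.03. Rpl36a measured 236, 209.6 and 178 CPM in the knockdown libraries, against 205, 179.6 and 161 CPM in the control libraries, with 0.19. Rpl7 measured 432, 416 and 403 CPM in the knockdown libraries, against 402, 375 and 369 CPM in the control libraries, with 0.13. Rpl3l, known from heart and skeletal muscle, measured only 1.23, 1.86 and 0.616 CPM in the knockdown libraries, against 1.16, 2.19 and 1.27 CPM in the control libraries, with a log2 fold change of -0.32 ± 0.46. Rps4y2 measured 23.2, 24.5 and 29.0 CPM in the knockdown libraries, against 21.6, 21.8 and 28.4 CPM in the control libraries, and its groups overlapped.

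The 2 paralogs that did not pass the filter are known from the testis. Rpl10l had 0 counts in every library, which allows up to 3 counts, or 0.0167 to 0.0202 CPM in a library. Rpl39l had 7, 13 and 40 counts in the knockdown libraries, against 7, 0 and 0 in the control libraries, and was not tested. Its partner Rpl39 measured 463, 428 and 332 CPM in the knockdown libraries, against 462, 407 and 381 CPM in the control libraries, with a log2 fold change of -0.03.

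A ratio of paralog to partner counts within a library needs no scaling factor. Rpl7l1 had 7.52%, 8.80% and 8.98% of the counts of Rpl7 in the knockdown, against 11.4%, 11.5% and 11.6% in the control. Rpl22l1 had 119%, 139% and 102% of the counts of Rpl22 in the knockdown, against 160.0%, 157% and 164% in the control. Rpl36al had 162%, 158% and 172% of the counts of Rpl36a in the knockdown, against 174%, 188% and 191% in the control. In these 3 pairs each knockdown library lay below each control library. Among single tested genes, 38.7% did not overlap between the groups with TMM, and the share for ratios of other gene pairs was not computed. The exact two-sided permutation p was 0.1 for each, the smallest that 3 against 3 libraries allows, and 0.167 after Benjamini-Hochberg adjustment over the 5 pairs compared. The ratios overlapped for Rpl3l to Rpl3 (p = 0.8, exact permutation test) and for Rps4y2 to Rps4x (p = 0.6, exact permutation test). The coding sequences of paralog and partner were 54.4% (Rpl7l1), 67.5% (Rpl22l1), 73.2% (Rpl3l) and 87.7% (Rpl36al) identical and shared no stretch of 50 bases. Rps4y2 had no gene model here, so its sequence was not compared with that of Rps4x.

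**Figure D3:**
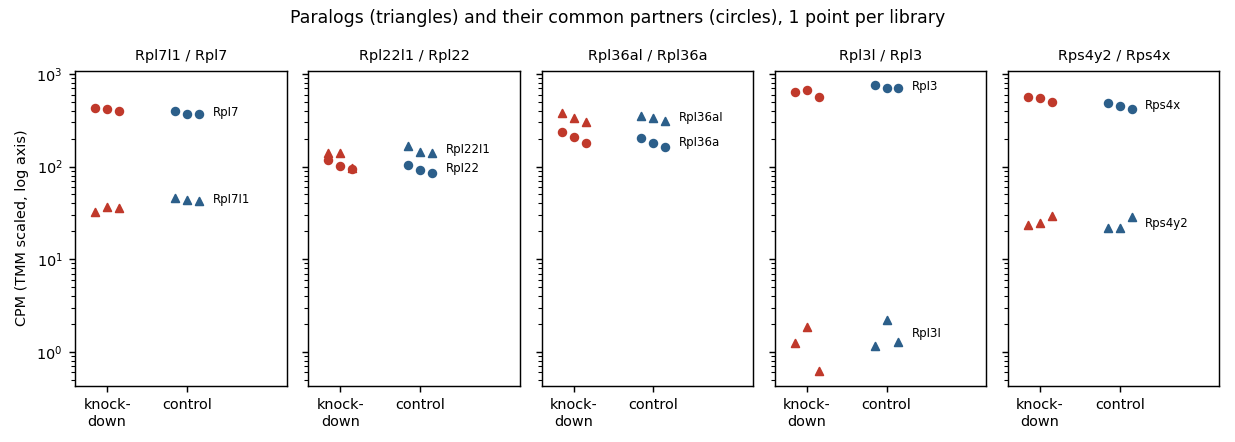
CPM of 5 paralog-like genes (triangles) and their partners (circles) on a log axis, 1 point per library, knockdown in red at the left of each panel and control in blue at the right. Rpl7l1 triangles are lower in all knockdown libraries than in all controls, and Rpl3l sits near 1 CPM in both groups.

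Levels can be compared between genes only per length. Per kilobase of the annotated principal transcript, the 77 common members with a gene model had a median of 386 CPM and quartiles of 293 and 596 CPM over the 6 libraries. The order of these levels began with Rpl41 at 1754, Rps27 at 1030.1 and Rpl23a at 946 CPM per kilobase and ended with Rpl22 at 48.5. Among the paralogs Rpl36al reached 641 and Rpl22l1 250.4 CPM per kilobase, against 404 for Rpl36a, while Rpl7l1 had 15.2, Rpl3l 1.01 and Rpl39l 0.0865. The per-length level depends on which transcript is taken as principal, as for Rpl22, where the transcript is 2051 bases long with 384 coding bases. Where several principal transcripts qualified, the longest was taken. The next lowest common members, Rps20 at 55.8 and Rps15a at 81.1, had transcripts of 3706 and 5179 bases. The low end of this order may therefore reflect that choice.

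The choice of scaling moved the group together with all other genes. Knockdown libraries had TMM factors of 1.09, 1.04 and 1.05, against 0.955, 0.950 and 0.925 in the control libraries. With total counts in place of TMM, the median over all tested genes shifted to a log2 fold change of 0.18, that of the common members to 0.21 and that of the paralogs to -0.12. The common members stood 0.03 above the median of all genes under TMM, relative log expression, upper-quartile and total-count scaling alike, and the paralogs stood at -0.30 or -0.31 relative to it. A change of scaling shifts every gene by nearly the same amount, so these distances stay alike by construction. With TMM, the distance of the common members was 0.13 without knockdown library 3 and -0.03 without knockdown library 1. Other genes of at least 10 CPM had lower TMM medians than all tested genes. These were -0.07 for transcripts of at least 1000 bases and -0.19 for shorter ones, against 0.05 for the common members. The part of expression level in these distances was not tested. The number of positive log2 fold changes was 67 of 82 with total counts, and all knockdown libraries lay above all controls for 20 members, or 24.4% of those tested, against 29.6% of all tested genes. They lay below for 2 members, against 11.1% of all tested genes.

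The calls moved with it. With total counts 14 members were called higher and 0 lower, or 17.1% of those tested, against 22.3% of all tested genes (16.5% higher and 5.80% lower). They were Rpsa, Rpl10, Rps4x, Rpl18, Rpl4, Rpl21, Rpl13a, Rps9, Rpl7, Rpl24, Rps3, Rpl19, Rpl10a and Rpl5. Rpsa was the member called higher in both fits, with a log2 fold change of 0.49 and an adjusted p of 0.00268 with total counts, while Rpl28 missed the threshold there (adjusted p = 0.0511, edgeR) and Rpl7l1 had an adjusted p of 0.308. Relative log expression gave 2 higher and 1 lower, against 20.7% of all tested genes called (8.90% higher and 11.8% lower). The upper quartile gave 6 higher and 1 lower, against 20.4% of all tested genes (11.7% higher and 8.62% lower). TMM factors computed without the members gave 1 higher and 2 lower, as with them, against the same 21.1% of all tested genes (8.48% higher and 12.6% lower). When the libraries were scaled to equal sums of the common members, 0 were higher and 1 was lower (Rpl28), against 10.3% of all tested genes called (3.88% higher and 6.47% lower). That scaling sets the family's sum equal by construction. A filter at a mean of 1 CPM gave 5 higher and 1 lower, against 27.3% of all tested genes (13.2% higher and 14.2% lower). Without a low-count filter there were 1 higher and 2 lower, against 17.6% (7.03% higher and 10.6% lower). DESeq2 called 3 higher and 5 lower, against 25.7% (11.6% higher and 14.1% lower), and limma-voom 2 higher and 4 lower, against 21.9% (8.72% higher and 13.2% lower).

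**Figure D4:**
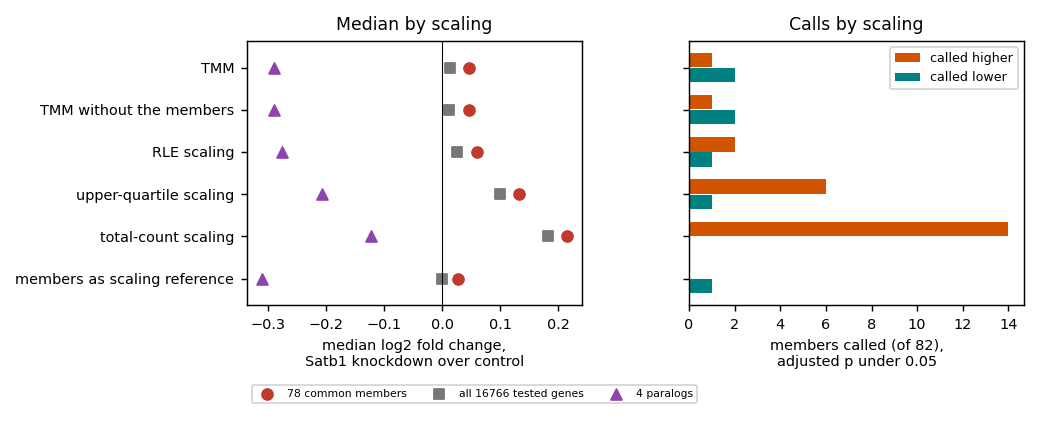
Median log2 fold change of knockdown over control (left) for 78 common members, 4 paralogs and all 16766 tested genes, and the number of the 82 tested members called higher or lower (right), under 6 scalings. The 3 medians move together, since a change of scaling shifts every gene by nearly the same amount. The number called higher runs from 0 with the members as the scaling reference to 14 with total counts.

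Members differed between libraries of the same group in the same order in both groups. By share of total counts, knockdown library 1 was the highest of its group for 71 of 78 common members and knockdown library 3 the lowest for 72. Within the control, by the same measure, library 1 was the highest for 73 and library 3 the lowest for 72. With TMM, the median common member stood at 0.16, 0.09 and -0.16 (log2, relative to the control mean) in the knockdown libraries, against 0.12, -0.01 and -0.11 in the control libraries. The median log2 fold change of the common members was 0.15 without knockdown library 3 and 0.10 without control library 1, and it turned negative without knockdown library 1 (-0.02) or control library 3 (-0.01). Without knockdown library 3, 5 members were called higher and 1 lower, against 16.0% of all tested genes (6.36% higher and 9.65% lower). With the replicate number as a block, 5 members were called higher and 13 lower, against 28.1% of all tested genes called (11.5% higher and 16.6% lower). With the block and total counts, 44 were called higher and 3 lower, against 30.3% of all tested genes (21.6% higher and 8.65% lower). The labels do not say that a number pairs the libraries. Deviations from the group means correlated at 0.06, 0.01 and 0.11 between same-numbered libraries over all genes, and at 0.59, 0.71 and 0.62 over the members, where each knockdown library correlated best with its own number.

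The spread between libraries moved with the length of the coding sequence. Ratios here are of library 1 to library 3 in share of total counts, on the log2 scale. Across 77 common members they correlated with coding length, with Pearson's r of -0.74 (Spearman's rho -0.77) in the knockdown and -0.56 (rho -0.61) in the control. These points share the same libraries and are a description. The median ratio was 0.45 for 36 members under 450 bases and 0.26 for 41 longer members in the knockdown, against 0.34 and 0.20 in the control. Among other genes of at least 10 CPM, the ratio was 0.24 for 479 genes with transcripts under 1000 bases and 0.02 for 8631 longer ones in the knockdown, against 0.19 and 0.02 in the control. The median log2 fold change between groups was -0.01 for the short and 0.08 for the long common members. The standard error of a single member had a median of 0.12 for the short and 0.09 for the long. Among other genes of at least 10 CPM, the median log2 fold change with TMM was -0.19 for transcripts under 1000 bases and -0.07 for longer ones. All 14 members called higher with total counts had coding sequences of at least 450 bases. So 14 of 41 long and 0 of 36 short common members were called there, against 16.5% of all tested genes called higher. RNA fragmentation and fragment size were not measured, and the part of length in these calls was not tested.

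**Figure D5:**
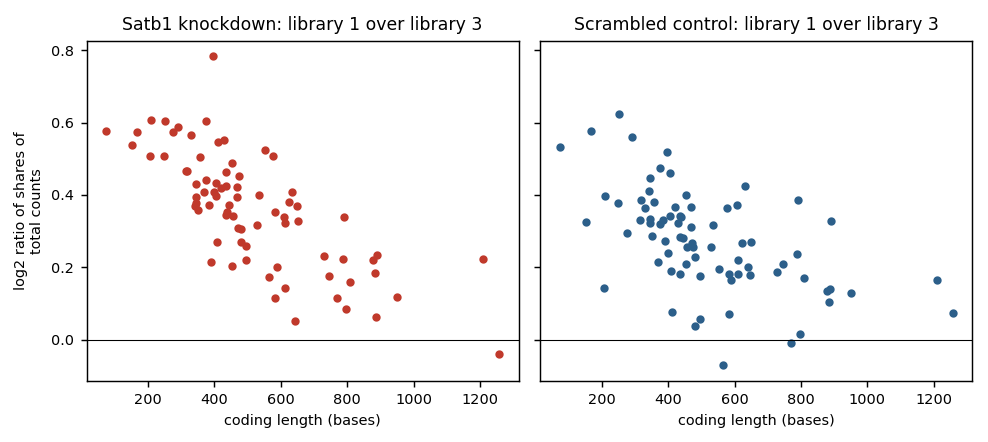
Log2 ratio of library 1 to library 3 in share of total counts against coding length in bases, 1 point for each of 77 common members, for the knockdown (left, red) and the control (right, blue). Short members lie higher in both panels, and Rpl4, one of the longest, lies near 0.

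Most members cannot be counted free of other copies. Of 83 members with a gene model in the mouse annotation (GENCODE M21, GRCm38), 80 shared at least one stretch of 50 coding bases with another gene, mostly pseudogenes, and 30 shared all of them. The median was 91.3% of stretches shared and 9 other genes, with up to 123 for Rpl7a. Rpl3l and Rpl39l were among those that shared none. No member with a gene model shared a stretch with another such member. Rps4y2 had no gene model, so sharing between it and Rps4x was not checked. Exons overlapped a gene on the opposite strand for 19 members and on the same strand for 28. The 30 members that hold a snoRNA gene had 1 higher and 0 lower and a median log2 fold change of 0.05, and the 51 tested members without one had 0 higher and 2 lower and a median of 0.03. The shares called were 3.33% and 3.92%, against 21.1% of all tested genes.

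Related genes were counted in the same fit. Of 4 ribosomal proteins outside the naming rule, 2 were higher and 0 lower. Rps27l, a p53-responsive homolog of Rps27, measured 65.6, 52.3 and 57.1 CPM in the knockdown libraries, against 43.4, 39.0 and 38.7 CPM in the control libraries, with a log2 fold change of 0.53 ± 0.11 and an adjusted p of 0.00609 (edgeR). Gnb2l1, the scaffold protein of the small subunit known as RACK1, had a log2 fold change of 0.27 and an adjusted p of 0.0437 (edgeR), while Fau, whose protein is made fused to a relative of ubiquitin, had -0.02. Of 18 elongation factors and other messages with TOP elements, 1 was higher and 1 lower, or 11.1% called against 21.1% of all tested genes, with a median of 0.05. These were Npm1, a nucleolar chaperone, at 0.31, and Eef1b2, an exchange factor for elongation, at -0.70.

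Of 49 ribosome biogenesis factors, 7 were higher and 6 lower, or 26.5% called against 21.1% of all tested genes, with a median log2 fold change of 0.01. The 3 with the smallest p are named by rule. Fbl, the methyltransferase fibrillarin, was at 0.61, Rpf1 at -0.75 and the helicase Ddx10 at -0.64. Of 14 RNA polymerase I genes, 0 were higher and 1 lower (Twistnb, a subunit of the polymerase, at -0.65), or 7.14% called, with a median of -0.12. Of 15 genes of mTORC1 signalling, 3 were higher and 4 lower, or 46.7% called, with a median of -0.03. Sesn2, a leucine sensor and inhibitor of mTORC1, was at 1.58, Mlst8, an mTORC1 subunit, at -0.69 and Rps6kb2, an S6 kinase, at -0.88. Of 76 mitochondrial ribosomal proteins, 0 were higher and 28 lower (36.8%) with a median of -0.26, against 8.48% of all tested genes higher and 12.6% lower and a median of 0.01. Mrpl37 was at -1.05, Mrpl32 at -0.85 and Mrps7 at -0.74. With total counts this list had 3 higher (3.95%) and 7 lower (9.21%) and a median of -0.09, against 16.5% of all tested genes higher and 5.80% lower and a median of 0.18. The difference between the cytosolic and mitochondrial lists was not tested.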

How the data were processed

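RNA was sequenced from 6 mouse libraries grouped by their titles. Raw integer counts for each gene were deposited by the authors in a single file. Per the submitters' processing notes, TopHat2 2.0.8 and the mm10 build were used. The sources used here do not give how reads were counted, by strand or with several alignments.

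The members and gene lists were chosen with earlier results of these data known. Counts were tested with edgeR 4.0.16 (R 4.3.3), using the quasi-likelihood F-test with 2 sides, TMM scaling, filterByExpr by group (minimum count 10, minimum total 15) and Benjamini-Hochberg adjustment over 16766 genes at 0.05. Alternatives were other scalings and filters, a robust dispersion, DESeq2 1.42.0, limma-voom (limma 3.58.1), a replicate block and leaving out each library. The fit was also run on counts simulated from its own model and fitted dispersions. That run cannot show how well the model describes these 6 libraries. CPM came from the deposited counts. Replicate libraries differed by far more than sampling noise, with a chi-square per gene of 58.5 to 156. A count of 0 allows up to 3 counts, for counting error only.

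The rule named the called members, at most 8 in each direction by p, the 5 most abundant members, tested paralogs and partners, the stalk genes and Rpsa, and at most 3 genes per list. Other members named were chosen after their values were seen. Some genes are not reported here and stay in the counts. Gene models came from GENCODE M21 and promoter windows from RefSeq.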

Additional observations from a re-analysis of the deposited data

How the results depend on the processing

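For the members called higher and lower (1 and 2 with TMM), relative log expression gave 2 and 1, the upper quartile 6 and 1, total counts 14 and 0, the members as scaling reference 0 and 1, a filter at a mean of 1 CPM 5 and 1, DESeq2 3 and 5, and limma-voom 2 and 4. No low-count filter, a robust dispersion and TMM without the members gave 1 and 2. The labels pair no libraries. Same-numbered libraries correlated at 0.06, 0.01 and 0.11 over all genes, where knockdown library 2 did not correlate best with its own number, and at 0.59, 0.71 and 0.62 over the members, where each did. With a replicate block, 5 were higher and 13 lower (against 11.5% and 16.6% of all tested genes), and with the block and total counts, a choice made after seeing the data, 44 were higher and 3 lower (against 21.6% and 8.65% of all tested genes). The common median was 0.21 with total counts, with and without the block, and the paralog median was -0.12, or -0.13 with the block. Leaving out 1 library gave 0 to 5 higher and 1 to 3 lower (against 4.71% to 7.94% higher and at least 6.64% lower over all tested genes), a common median of -0.02 to 0.15, a paralog median of -0.35 to 0.022 (Rpl39l then passed the filter in 4 of these fits) and a summed share ratio of 1.07 to 1.21.

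Some values of members that were not called changed sign. Rpl39 was at 0.14 with total counts, 0.054 with the upper quartile, 0.014 when genes under a mean of 1 CPM were left out, and 0.13 with the block and total counts. Rplp2 was at 0.11 with total counts, with and without the block, and 0.032 with the upper quartile. Leaving out 1 library gave -0.12 to 0.11 for Rpl39, -0.13 to 0.032 for Rplp2, -0.73 to 0.022 for Rpl3l, -0.060 to 0.11 for Rpl36al, -0.077 to 0.19 for Rpl41 and -0.015 to 0.16 for Rps24. The cause was not tested. The summed share ratio was 1.11 without the 100 most abundant other genes and 1.14 without paralogs and the 5 most abundant members.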
